A study of Mus musculus with 8 samples.

Results

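The genes described here are Hsd11b1 and a set of 9 genes around it that make up the glucocorticoid response of a cell: its partner enzyme H6pd, the receptors Nr3c1 and Nr3c2, and the targets Fkbp5, Tsc22d3, Sgk1, Zbtb16, Mt1 and Mt2. They were chosen by name, with earlier results of these data known. The value of each gene in each sample was the row of that sample whose mm9 position overlapped the annotated gene best. Of the 10 genes, 8 are among the 20197 that had a value in each of the 8 samples, and Mt1 and Mt2 lacked 1 sample. Of the 10, 9 passed the limit on low values, as did 10286 genes in all.

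RNA-Seq was done on NIH3T3 cells, fibroblasts of mouse embryo grown as a line, which respond to Hedgehog (Hh) ligand, and all 8 samples are from cells kept under zeocin selection for the pcDNA3.1 (Zeo+) vector. Control cells carried the empty vector (NIH3T3-pc3.1) and received vehicle, which was medium from HEK293 cells without a Shh transgene. Hh-CM cells carried the empty vector and received 1% conditioned medium from HEK293 cells that secrete the N-terminal part of Sonic Hedgehog, for 48 h. Esrrb cells carried an expression vector for Esrrb, the orphan estrogen related receptor beta (NIH3T3-Esrrb), and received vehicle, and Esrrb+Hh-CM cells carried the same vector and received Hh-CM. Each of the 4 groups had 2 samples. The study's methods call the 2 samples of a condition biological replicates, and state that selected cells of independent transfections were pooled. The wording does not settle whether each line was 1 pool or each transfection was kept as its own pool. The p-values thus measure only the spread between these samples. If the samples of a line share 1 pool, a difference between the lines cannot be told apart from a difference between pools. With 2 samples against 2, an exact permutation test could not go below p = 0.33, and the adjusted p-values given below come from limma fitted across all tested genes with Benjamini-Hochberg adjustment. The files used here hold no steroid level. In RNA of whole cultures, fewer cells that express a gene and less RNA per cell cannot be told apart.

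Glucocorticoids act on a cell through an enzyme step and a receptor step. The enzyme 11beta-hydroxysteroid dehydrogenase type 1, encoded by Hsd11b1, sits in the endoplasmic reticulum and reduces inactive cortisone or 11-dehydrocorticosterone to the active steroid, using NADPH that H6pd makes in the same compartment. Active steroid binds the glucocorticoid receptor, Nr3c1, or the mineralocorticoid receptor, Nr3c2, which are held by Hsp90 chaperone complexes and then bind glucocorticoid response elements in DNA. Fkbp5, Tsc22d3, Sgk1, Zbtb16, Mt1 and Mt2 are textbook targets that glucocorticoid induces in many cell types, and fibroblasts are a cell type in which Hsd11b1 is known to be expressed.

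The samples carried the marks of fibroblasts and, in Gli1, of the Hh treatment. All 9 fibroblast markers were above 1 FPKM (fragments scaled by transcript length and by the mapped fragments of the sample), with Pdgfrb the lowest of them at 28.2 to 48.0 FPKM, and S100a4 had no value in Esrrb replicate 2. Of 16 markers of epithelial, leukocyte, endothelial, adipocyte and liver cells, only Cd68 reached 1 FPKM in any sample, and Epcam, Krt18, Kdr, Adipoq, Lep, Alb and Ttr were listed at 0 in all 8. Gli1, a direct Hh target, was at 0.0217 to 0.106 FPKM in the 4 samples without Hh-CM and at 26.8 to 34.8 FPKM in the 4 with it. Hhip, also looked at for the Hh response, was listed at 0 in all 8 samples, with and without Hh-CM. Esrrb itself was at 0 to 0.0281 FPKM in every sample, also in the cells that carry its vector, so these values do not check the vector labels. By Western blot, the study reported Esrrb protein in the cells with the Esrrb vector. The files hold no read counts. Depth relative to Control replicate 1, read from the steps between low values, was lowest at 0.743 (Esrrb+Hh-CM replicate 2) and highest at 1.54 (Hh-CM replicate 2).

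Start-site sequences of Hsd11b1, which had the largest change, of Sgk1, and of the neighbouring Mt1 and Mt2, which moved together, are printed. Matches to the letters of response elements are marked in them, whether or not the element is known to act in that gene. They are RefSeq windows from 250 bases before to 50 bases after an annotated start (table build GRCm38.p6), which were found again as 1 exact match each on the same chromosome of mm9, the build of the files. RefSeq windows were matched for 8 of the 10 genes. In capitals are the full glucocorticoid response element, AGNACA and TGTNCT with any 3 bases between them, and its half-site TGTTCT in Sgk1, and the metal response element core, TGCACNC or TGCGCNC, in the other 3, each searched on both strands. The half-site lies within the full element, so the 2 overlap. The windows are Hsd11b1 at chr1:195068505-195068804 on the minus strand, Sgk1 at chr10:21713446-21713745, Mt1 at chr8:96702739-96703038 and Mt2 at chr8:96696268-96696567, the last 3 on the plus strand, all in mm9.
Hsd11b1: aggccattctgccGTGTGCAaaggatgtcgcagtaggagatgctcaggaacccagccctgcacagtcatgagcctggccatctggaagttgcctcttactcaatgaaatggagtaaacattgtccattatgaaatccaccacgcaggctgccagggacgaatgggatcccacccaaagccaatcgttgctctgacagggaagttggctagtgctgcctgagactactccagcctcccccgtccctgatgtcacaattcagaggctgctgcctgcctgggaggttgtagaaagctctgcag
Sgk1: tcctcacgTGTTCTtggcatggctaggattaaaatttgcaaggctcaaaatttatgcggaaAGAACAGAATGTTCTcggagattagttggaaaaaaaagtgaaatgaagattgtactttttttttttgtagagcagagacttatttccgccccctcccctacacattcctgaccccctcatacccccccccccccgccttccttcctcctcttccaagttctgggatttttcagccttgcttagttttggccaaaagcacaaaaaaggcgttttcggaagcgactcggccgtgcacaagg
Mt1: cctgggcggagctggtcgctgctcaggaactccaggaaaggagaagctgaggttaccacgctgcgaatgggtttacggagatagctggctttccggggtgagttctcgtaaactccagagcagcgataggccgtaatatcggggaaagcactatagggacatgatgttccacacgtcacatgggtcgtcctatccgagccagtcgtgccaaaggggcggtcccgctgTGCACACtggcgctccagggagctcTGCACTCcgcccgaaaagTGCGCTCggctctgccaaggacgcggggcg
Mt2: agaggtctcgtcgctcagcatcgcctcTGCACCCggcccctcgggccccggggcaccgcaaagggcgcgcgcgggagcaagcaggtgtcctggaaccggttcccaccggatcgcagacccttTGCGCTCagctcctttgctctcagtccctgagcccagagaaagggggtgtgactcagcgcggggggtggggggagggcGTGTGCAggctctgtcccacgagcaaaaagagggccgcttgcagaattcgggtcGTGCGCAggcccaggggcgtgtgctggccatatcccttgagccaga

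Sgk1 has 6 RefSeq starts, and the printed window was picked because it alone among them held the full element, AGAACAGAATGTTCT. The first base of the element lies 189 bases before the start, and a further half-site lies 242 bases before it. The full element was in 21 of 32851 RefSeq windows of the same length (0.0639%), and Sgk1 was the only 1 of the 8 matched genes with it. The half-site was in 19% of all windows and in at least 1 window of H6pd, Sgk1 and Tsc22d3. Shares here are per window, while a gene counts if any of its windows matches. Sgk1 has 6 windows and Tsc22d3 has 3, so their matches stand beside an unlike rate for each motif. The Mt1 window held 3 metal response element cores and the Mt2 window 4, and the Hsd11b1 window held 1. Of the 8 matched genes 5 had the core, the others being Nr3c2 and Sgk1, the latter in a window that is not printed. At least 1 such core was in 25.7% of all windows, at least 3 in 1.97% and at least 4 in 0.517%. The C/EBP site TTGCNNAA (10.8% of all windows) was found in H6pd, Mt2, Nr3c2 and Sgk1, and the core AAGGTCA that estrogen related receptors bind (4.72%) in H6pd and Sgk1. The Gli site GACCACCCA (0.253%) was in none of the 8 genes' windows, which says only that these letters are not within these bases. The row of Hsd11b1 runs from 195047833 or 195047835 to 195090239 on chromosome 1 and so takes in an upstream start besides the one shown. FPKM of a whole gene does not tell which start was used, in Hsd11b1 or in Sgk1. A match in letters is a description of the sequence and shows no binding.

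Hsd11b1 rose with Hh-CM in both cell lines, and its level was highest in cells with both the Esrrb vector and Hh-CM. Hsd11b1 was at 3.77 and 3.63 FPKM in the 2 Control samples. The 2 Hh-CM samples held 78.9 and 76.8 FPKM. In Esrrb cells it was at 3.22 and 1.91 FPKM. In Esrrb+Hh-CM cells it reached 167 and 137.5 FPKM. The 4 samples with Hh-CM were all above the 4 without it, and both Esrrb+Hh-CM samples were above both Hh-CM samples. How many of all genes separate the samples with and without Hh-CM was not counted, so such separations, here and below, are descriptions.

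Differences are given on the scale of log2(FPKM + 0.1), as the second group named minus the first, and a gene was called where the limma adjusted p was below 0.05 and the difference at least 1 in size. Between Control (3.70 ± 0.0986 FPKM, SD, n = 2) and Hh-CM (77.9 ± 1.49 FPKM, n = 2) the means of Hsd11b1 differed 21.1-fold. The log2 difference was 4.36 (SE 0.231, limma adjusted p = 0.0002247), the 22nd highest of 10286 genes. From Esrrb (2.56 ± 0.928 FPKM) to Esrrb+Hh-CM (152.2 ± 20.9 FPKM) Hsd11b1 rose 59.3-fold, or by 5.88 on the log2 scale (SE 0.231, limma adjusted p = 5.485e-05), and ranked 8th. From Control to Esrrb+Hh-CM it rose by 5.32 on the log2 scale (limma adjusted p = 5.14e-05). The Esrrb vector without Hh-CM gave no call: Hsd11b1 differed by -0.56 on the log2 scale (95% interval -1.13 to 0.01, limma adjusted p = 0.1635), so Control and Esrrb, the neighbours at the low end of the order, were not shown to differ. In the percentile of its level among the tested genes, Hsd11b1 stood at 18.6 in Control, 91.6 with Hh-CM, 11.9 with the Esrrb vector and 95.8 with both.

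Among Hh-CM-treated cells, Hsd11b1 was 1.95-fold higher with the Esrrb vector than without it. The difference was 0.96 on the log2 scale (SE 0.231, limma adjusted p = 0.03896), short of the fold limit of 1. The adjusted p was 0.0684 to 0.143 without any 1 of the 2 Control, 2 Hh-CM and 2 Esrrb+Hh-CM samples. Whether the response to Hh-CM itself differed between the lines was asked with the interaction, the Hh-CM difference in the Esrrb line less that in the empty vector line. For Hsd11b1 it was 1.51 (SE 0.327, limma adjusted p = 0.09107) and did not pass. Without Esrrb replicate 1 it was 1.88 and passed (adjusted p = 0.02184), and the Control and Esrrb difference became -0.92 (adjusted p = 0.02381). The value of Esrrb+Hh-CM replicate 2, 137.5 FPKM, lies above the 95% interval that Cufflinks gave for the same row, 114.9 to 129.1.

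H6pd, the hexose-6-phosphate dehydrogenase that supplies NADPH to the Hsd11b1 enzyme, did not follow it. H6pd was at 21.1 and 21.8 FPKM in Control, 20.4 and 20.6 with Hh-CM, 23.5 and 24.8 with the Esrrb vector, and 25.4 and 23.1 with both. All 8 values lay within 20.4 to 25.4 FPKM. The H6pd row, on the minus strand of chromosome 4, had a different position in each sample. In both Control samples, Esrrb replicate 1 and Hh-CM replicate 2 its 3' end lay at 149350758 to 149350819. In the other samples it lay at 149353260 to 149353590. Comparisons of H6pd, and the ratios below, thus set unlike stretches beside each other. The Hh-CM difference in H6pd was -0.06 on the log2 scale without the Esrrb vector (95% interval -0.21 to 0.08) and 0.01 with it (-0.14 to 0.15). It was 0.24 higher in Esrrb+Hh-CM than in Hh-CM cells (limma adjusted p = 0.0433), and the adjusted p was 0.0616 to 0.166 without any 1 of 7 of the 8 samples, the exception being Esrrb+Hh-CM replicate 2. Without that sample H6pd was also 0.24 higher in Esrrb+Hh-CM than in Control cells (adjusted p = 0.03502, against 0.06939 with it). FPKM is per length, so the 2 enzymes can be set against each other: the ratio of Hsd11b1 to H6pd was 0.179 and 0.166 in Control, 3.88 and 3.72 with Hh-CM, 0.137 and 0.077 with the Esrrb vector, and 6.57 and 5.95 with both. Hsd11b1 was thus below its partner in the 4 samples without Hh-CM and above it in the 4 with Hh-CM.

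The list of 11beta-dehydrogenases and NADPH supply in the endoplasmic reticulum held 8 genes, of which 6 were tested. Hsd11b1 was the only 1 of them called. Its calls were in Control against Hh-CM (2.77% of all tested genes), Control against Esrrb+Hh-CM (6.23%) and Esrrb against Esrrb+Hh-CM (4.82%). By the adjusted p alone 2 of the 6 were higher in each of these comparisons (18.1%, 35.1% and 23.4% of all tested genes passed). From Hh-CM to Esrrb+Hh-CM 3 were higher (19.1%), and between Control and Esrrb none passed (16.4%). Hsd11b2, the enzyme that inactivates the steroid, was at most 0.0446 FPKM in any sample. Pgls was left out of the test because it had no row in at least 1 sample, although it reached 53.6 FPKM. Of 13 other genes of steroid synthesis and clearance, 4 were tested. Akr1c14, a 3alpha-hydroxysteroid dehydrogenase that clears steroids, rose from 9.71 ± 0.844 to 27.3 ± 0.591 FPKM with Hh-CM (log2 1.48, limma adjusted p = 0.0005084) and from 6.14 ± 0.618 to 16.9 ± 1.14 FPKM in the Esrrb line (1.45, adjusted p = 0.0003055). Abcb1b, an efflux pump that exports steroids, rose from 2.95 ± 0.255 to 6.34 ± 1.35 FPKM between Esrrb and Esrrb+Hh-CM cells (1.06, adjusted p = 0.01016). The call of Abcb1b was lost without Esrrb replicate 2 (0.98, adjusted p = 0.05697) and without Esrrb+Hh-CM replicate 2 (0.85), and with a pseudocount of 1 (0.88). Cyp11a1, Cyp11b1, Hsd3b1 and Hsd3b6, enzymes that build steroids, were listed at 0 in every sample.

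The glucocorticoid receptor gene Nr3c1 was higher in cells that received Hh-CM, by less than the fold limit. Nr3c1 was at 25.9 and 26.3 FPKM in Control and 42.0 and 39.7 with Hh-CM. It was at 25.8 and 24.1 FPKM in Esrrb cells without Hh-CM and 41.4 and 42.4 with it. The 4 samples with Hh-CM were all above the 4 without it, while the ranges of Hh-CM and Esrrb+Hh-CM overlapped. The Hh-CM difference was 0.64 on the log2 scale in cells with the empty vector (SE 0.0508, 1.57-fold, limma adjusted p = 0.0008833) and 0.75 in the Esrrb line (1.68-fold, adjusted p = 0.0003145). Nr3c1 differed by -0.06 between Control and Esrrb cells (95% interval -0.19 to 0.06) and by 0.04 from Hh-CM to Esrrb+Hh-CM cells (-0.09 to 0.16).

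Nr3c2, the mineralocorticoid receptor, which also binds glucocorticoid, was just above the 1 FPKM that a gene needed in at least 2 samples to be tested. Its 8 values ran from 1.05 FPKM in Esrrb+Hh-CM replicate 1 to 1.68 FPKM in Hh-CM replicate 2. No comparison of Nr3c2 passed, the smallest limma adjusted p being 0.1093 for Hh-CM against Esrrb+Hh-CM (log2 -0.47, 95% interval -0.90 to -0.05). In every sample but Esrrb replicate 2 a further short row lay at the 3' end of Nr3c2, between 79767615 and 79768884 on chromosome 8, and was not counted. The row that was used took in this 3' end in Esrrb replicates 1 and 2 (to 79768882 and 79768782) and stopped at 79767538 in all other samples. Comparisons of Nr3c2 with Esrrb cells, and the ratios below, thus set unlike stretches beside each other. Per length, Nr3c1 exceeded Nr3c2 by 17.6-fold to 39.3-fold over the 8 samples. Of 16 chaperones and coregulators of the receptors, 14 were tested. Fkbp5 was the only 1 called in any comparison, beside 1.35% to 6.23% of all tested genes. By the adjusted p alone 3 were higher and 4 lower between Control and Hh-CM (18.1% of all tested genes passed). From Control to Esrrb+Hh-CM 7 were higher and 3 lower (35.1%). Between Esrrb and Esrrb+Hh-CM 2 were higher and 1 lower (23.4%). Between Control and Esrrb 2 were lower (16.4%), and from Hh-CM to Esrrb+Hh-CM 3 were higher (19.1%). Hspa8 and Fkbp4 had no row in at least 1 sample and were not tested, although they reached 1202 and 101 FPKM.

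**Figure D1:**
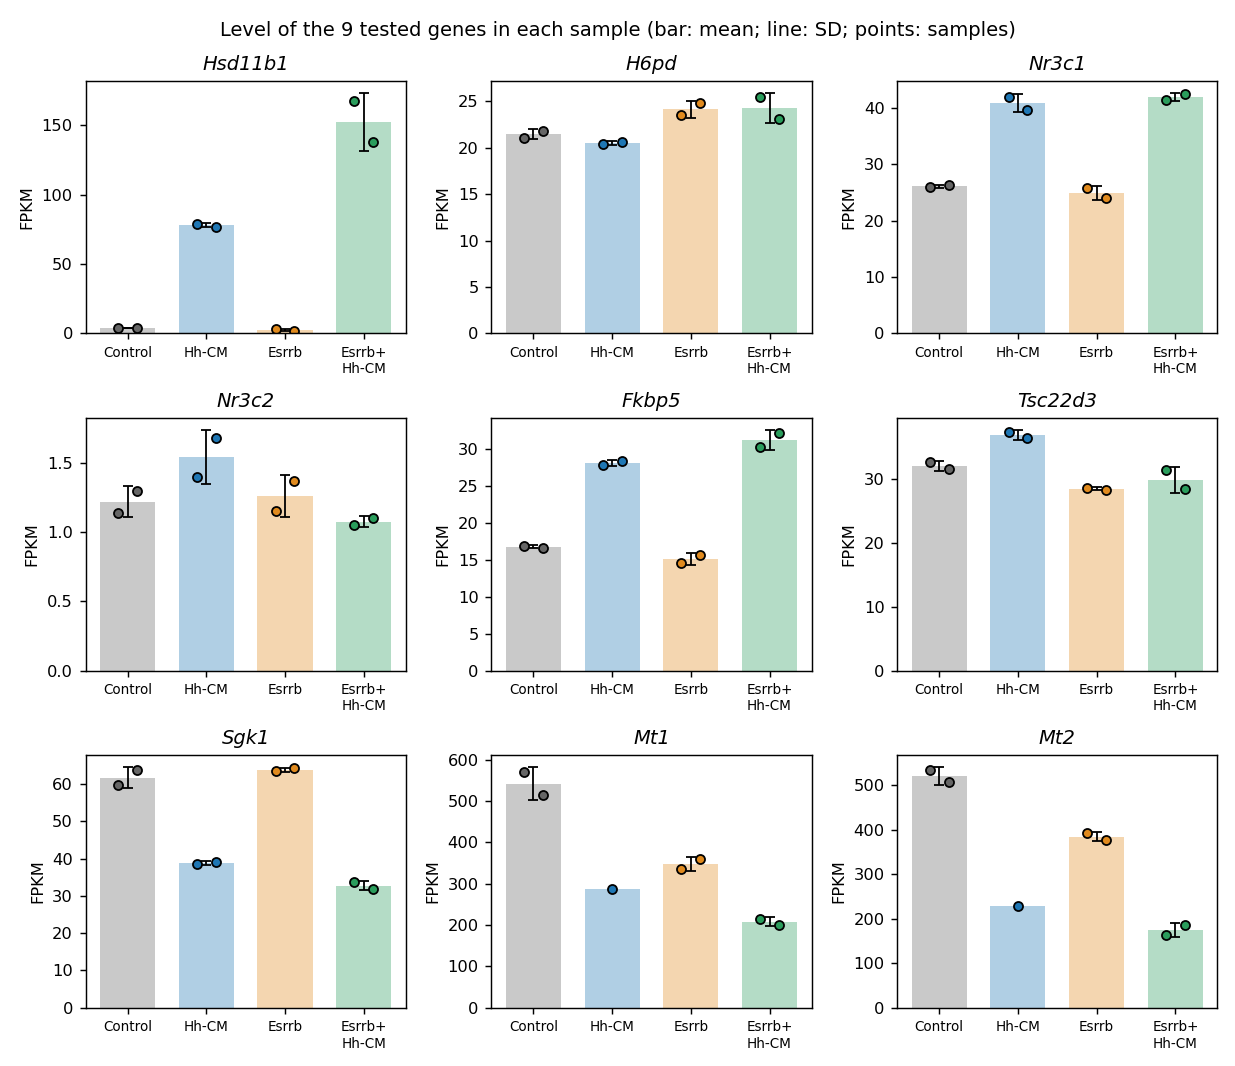
FPKM (vertical axis, from 0, a separate scale per gene) of the 9 tested genes in the 4 groups (horizontal axis), with bars for group means, lines for the SD and points for the samples. Hsd11b1 rises from 1.91 to 3.77 FPKM in the samples without Hh-CM to 76.8 to 167 FPKM with it, Nr3c1 and Fkbp5 are higher and Sgk1, Mt1 and Mt2 lower with Hh-CM, and Mt1 and Mt2 have 1 Hh-CM point because 1 row spans both genes in the other sample.

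Fkbp5 encodes a co-chaperone of the receptor complex that lowers its affinity for steroid and is itself induced by the receptor. Fkbp5 was at 16.9 and 16.6 FPKM in Control and 27.8 and 28.3 with Hh-CM. It was at 14.5 and 15.7 FPKM in Esrrb cells without Hh-CM and 30.2 and 32.1 with it. Every sample with Hh-CM was above every sample without it. The Hh-CM difference was 0.74 on the log2 scale with the empty vector (SE 0.0552, limma adjusted p = 0.0007509), short of the fold limit. In the Esrrb line Fkbp5 rose by 1.04 (2.06-fold, adjusted p = 0.0001316). This call sits at the fold limit and was lost without Esrrb replicate 1 (0.9851), without Esrrb+Hh-CM replicate 2 (0.9948) and with a pseudocount of 1 (0.9974). The interaction of Fkbp5 was 0.30 (SE 0.0781, limma adjusted p = 0.1304), so a difference between the lines in its response was not shown.

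Tsc22d3 encodes GILZ, a leucine zipper protein that carries part of the anti-inflammatory action of glucocorticoids. Its values were 32.6 and 31.4 FPKM in Control, 37.4 and 36.3 with Hh-CM, 28.6 and 28.2 with the Esrrb vector, and 31.3 and 28.4 with both. The 2 Hh-CM samples were the highest of the 8. The Hh-CM difference in Tsc22d3 was 0.20 on the log2 scale with the empty vector (95% interval 0.06 to 0.34, limma adjusted p = 0.06022) and 0.07 in the Esrrb line (-0.07 to 0.21), and neither passed. It was lower in Esrrb+Hh-CM than in Hh-CM cells by a log2 difference of -0.30 (limma adjusted p = 0.01808), far from the fold limit, and the adjusted p was 0.0974 and 0.0633 without Hh-CM replicates 1 and 2. Without either Esrrb+Hh-CM sample the Control and Hh-CM difference, still 0.20, had an adjusted p of 0.0288, and that of Control and Esrrb, still -0.17, one of 0.0465 and 0.0463.

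Sgk1, a kinase that glucocorticoid and mineralocorticoid induce and that regulates ion transport, was lower with Hh-CM. Its printed window, picked for that match, holds the full glucocorticoid response element. The gene was at 59.7 and 63.7 FPKM in Control and 38.5 and 39.2 with Hh-CM. Sgk1 was at 63.5 and 64.2 FPKM in Esrrb cells without Hh-CM and 33.6 and 31.9 with it. The samples with and without Hh-CM did not overlap, and the direction was opposite to that of Fkbp5. The Hh-CM difference was -0.66 on the log2 scale with the empty vector (SE 0.0471, limma adjusted p = 0.0006316) and -0.96 in the Esrrb line (adjusted p = 0.0001075), both short of the fold limit. The Esrrb-line value passed the limit by a small margin without Esrrb+Hh-CM replicate 1 (-1.0004) and after rescaling the samples (-1.0013). Sgk1 was lower in Esrrb+Hh-CM than in Hh-CM cells (-0.25, adjusted p = 0.01988), and its adjusted p was 0.066 to 0.0885 without Hh-CM replicate 1, Hh-CM replicate 2 or Esrrb+Hh-CM replicate 2. The interaction of Sgk1 was -0.30 (limma adjusted p = 0.09828).

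Zbtb16, a zinc finger factor that glucocorticoid induces strongly in many cells, was listed at a very low level. Its values ran from 0 FPKM in Control replicate 2 to 0.0496 FPKM in Hh-CM replicate 1, far below the limit of 1 FPKM, and it was not tested.

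**Figure D2:**
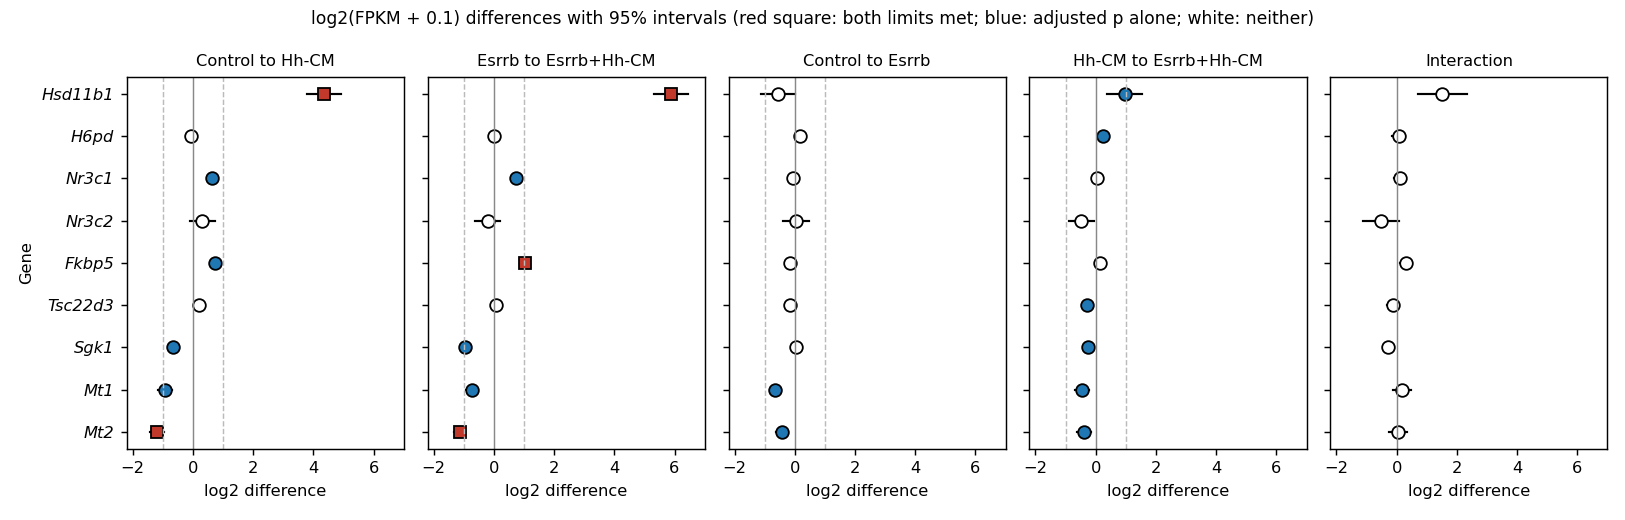
Differences in log2(FPKM + 0.1) (horizontal axis) of the 9 tested genes (vertical axis) in 4 comparisons and the interaction, with 95% intervals from the limma fit as lines and dashed lines at the fold limit of 1. Hsd11b1 stands at 4.36 and 5.88 for Hh-CM in the 2 lines, Fkbp5 at 0.74 and 1.04, Sgk1 at -0.66 and -0.96, and Mt2 at -1.19 and -1.14, while no gene passes for the Esrrb vector without Hh-CM by both limits or for the interaction.

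Mt1 and Mt2 encode metallothioneins, small cysteine-rich proteins that bind zinc and copper, and their genes are induced by metals through metal response elements and by glucocorticoid. They lie 5521 bases apart on chromosome 8 of mm9, Mt2 at 96696518 to 96697467 and Mt1 at 96702989 to 96704225, both on the plus strand and with the metal response element cores shown in their windows. Their coding sequences of 186 bases are identical at 148 bases (79.6%), with a longest identical run of 20 bases. In Hh-CM replicate 1 a single row spans both genes, from 96696518 to 96704227, at 528.3 FPKM. That row could not be split and the sample was left out for both genes, so each Hh-CM value below rests on replicate 2 alone.

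Both metallothioneins were highest in Control and lowest in Esrrb+Hh-CM cells. Mt1 was at 569.6 and 513.5 FPKM in Control, 286.9 with Hh-CM, 335.5 and 358.8 with the Esrrb vector, and 215.7 and 200.2 with both. Mt2 was at 534.0 and 505.8 FPKM in Control, 228.3 with Hh-CM, 391.4 and 377.2 with the Esrrb vector, and 163.5 and 185.9 with both. For either gene the values order without overlap as Control, Esrrb, Hh-CM and Esrrb+Hh-CM, with 1 value for Hh-CM. Groups this small often do not overlap: between Control and Hh-CM alone this was so for 62.6% of all genes with a value in each sample. How many of all genes order all 4 groups without overlap was not counted, so the order is a description. The summed FPKM of the 2 genes was 1104 and 1019 in Control, 726.9 and 736.0 in Esrrb, 515.2 in Hh-CM replicate 2, and 379.2 and 386.1 in Esrrb+Hh-CM samples. The ratio of Mt1 to Mt2 was 0.857 and 0.951 in Esrrb cells and 1.02 to 1.32 in the other 5 samples.

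With Hh-CM, Mt2 fell by 1.19 on the log2 scale in cells with the empty vector (SE 0.0889, limma adjusted p = 0.001735, 1 Hh-CM sample) and by 1.14 in the Esrrb line (SE 0.0726, adjusted p = 0.0006562). Mt1 was lower by less than the fold limit in the same comparisons (-0.91, adjusted p = 0.003806, and -0.74, adjusted p = 0.002617). From Control to Esrrb+Hh-CM both genes fell, Mt1 to 38.4% of its Control mean (-1.38, adjusted p = 0.0002674) and Mt2 to 33.6% (-1.58, adjusted p = 0.000185). The Esrrb vector went with lower values as well, below the fold limit: Mt1 was at 64.1% of Control in Esrrb cells (-0.64, adjusted p = 0.008172) and Mt2 at 73.9% (-0.44, adjusted p = 0.02269), and the Mt2 value had an adjusted p of 0.0732 to 0.106 without any 1 of the 4 Control and Esrrb samples. From Hh-CM to Esrrb+Hh-CM cells the differences were -0.47 in Mt1 (adjusted p = 0.02772) and -0.39 in Mt2 (adjusted p = 0.04411). Without Hh-CM replicate 1 or either Esrrb+Hh-CM sample the Mt1 adjusted p was 0.051 to 0.083. That of Mt2 was 0.066 to 0.0785 without Hh-CM replicate 1, Esrrb+Hh-CM replicate 1 or any 1 Control or Esrrb sample. The interactions were 0.18 in Mt1 and 0.05 in Mt2 and did not pass.

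For the metallothioneins the FPKM and the interval that Cufflinks wrote beside it often disagreed. The FPKM lies outside the 95% interval given for the same row in 7 of 7 Mt1 rows and 4 of 7 Mt2 rows, against 7.80% to 11.01% of all rows above 0 in a sample. In Control, Mt1 replicate 1 is at 569.6 FPKM with an interval of 346.9 to 384.3. When the midpoint of the interval took the place of the FPKM, an alternative chosen after seeing the data, Mt2 lost its calls for Hh-CM, with -0.88 in the empty vector line (adjusted p = 0.1684) and -0.82 in the Esrrb line (adjusted p = 0.1105). Of the 7 genes listed for metallothioneins and the metal response, 5 were tested, and none but Mt1 and Mt2 was called in any comparison. Mt3 and Mt4 were listed at 0 in every sample.

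**Figure D3:**
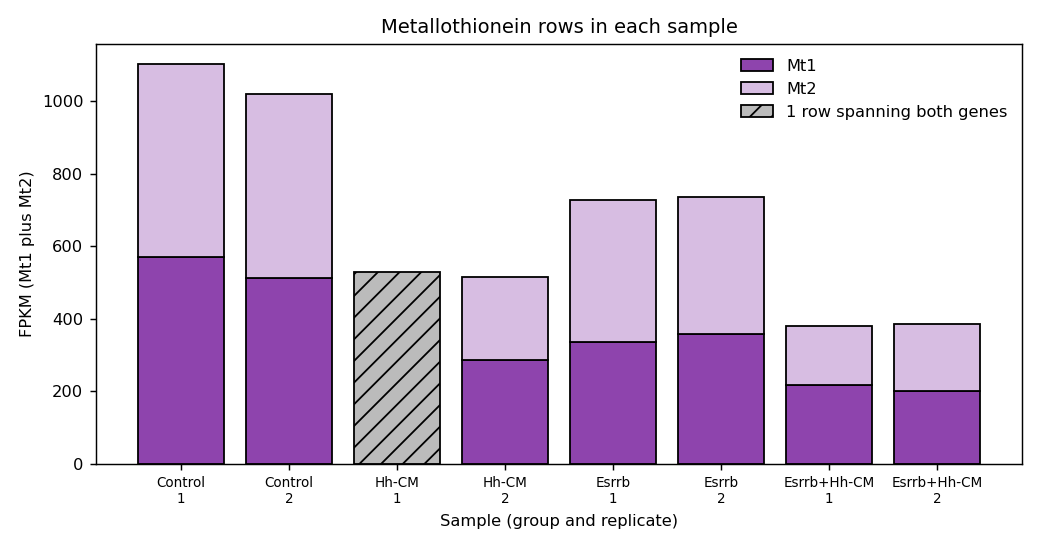
Summed FPKM of Mt1 (dark) and Mt2 (light) on the vertical axis in each of the 8 samples on the horizontal axis, with the row that spans both genes in Hh-CM replicate 1 hatched. The sums are 1104 and 1019 FPKM in Control, 726.9 and 736.0 in Esrrb, 515.2 in Hh-CM replicate 2 and 379.2 and 386.1 in Esrrb+Hh-CM samples, and the spanning row, whose FPKM is not a sum of 2 genes, stands at 528.3.

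The calls of the set are given beside the share of all tested genes. The set was chosen with earlier results of these data known, and the study had reported Hsd11b1 and Mt2 as changed by Hh-CM. An excess of calls over that share, here or by the adjusted p alone, is thus no independent evidence. Between Control and Hh-CM, 2 of the 9 tested genes of the set were called, Hsd11b1 upward and Mt2 downward, beside 2.77% of all tested genes. Between Esrrb and Esrrb+Hh-CM 3 were called, Hsd11b1 and Fkbp5 upward and Mt2 downward, beside 4.82%. Between Control and Esrrb+Hh-CM 3 were called, Hsd11b1 upward and Mt1 and Mt2 downward, beside 6.23%. None was called between Control and Esrrb (1.47% of all genes) or Hh-CM and Esrrb+Hh-CM (1.97%), and none passed the interaction (1.35%).

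By the adjusted p alone 6 of the 9 genes passed between Control and Hh-CM, with Hsd11b1, Nr3c1 and Fkbp5 higher and Sgk1, Mt1 and Mt2 lower, beside 18.1% of all tested genes. Those 6 genes, each in the direction just given, also passed between Esrrb and Esrrb+Hh-CM (23.4%) and between Control and Esrrb+Hh-CM (35.1%), comparisons that share samples in part. Mt1 and Mt2 passed between Control and Esrrb (16.4%). Between Hh-CM and Esrrb+Hh-CM 6 passed (19.1%), Hsd11b1 and H6pd higher and Tsc22d3, Sgk1, Mt1 and Mt2 lower. That last count depends on the setting: 1 of the 9 passed when the compared groups were fitted alone, 2 with no FPKM limit, 4 with no variance trend, and 0 to 4 with any 1 of the 8 samples left out (0 without either Hh-CM sample). At an unadjusted limma p under 0.05, where none had been called, 5 genes of the set passed between Control and Esrrb (32.5% of all tested genes), 8 between Esrrb+Hh-CM and Hh-CM (34.8%) and 3 for the interaction (18%), which were Hsd11b1, Sgk1 and Fkbp5. The same limit was passed by 7 genes of the set between Control and Hh-CM (32.1%), 7 between Control and Esrrb+Hh-CM (45.3%) and 6 between Esrrb and Esrrb+Hh-CM (35.6%). Groups of 2 samples often do not overlap: between Control and Hh-CM this was so for 9 of the 9 genes, of which Mt1 and Mt2 had 1 Hh-CM sample. It was so for 62.6% of the 10284 tested genes with a value in all 8 samples, which leave out Mt1 and Mt2.

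The textbook targets of the set thus did not move one way with Hh-CM: of the 5 tested, Fkbp5 was higher, Sgk1, Mt1 and Mt2 were lower and Tsc22d3 did not pass. A further list of 25 genes that glucocorticoid commonly induces was read the same way, and 17 of its 24 measured genes were tested. Between Control and Hh-CM 1 was called upward and 3 downward, beside 2.77% of all tested genes. The median log2 difference was -0.21 beside 0.04 for all tested genes. Angptl4, an inhibitor of lipoprotein lipase, fell from 197.4 ± 2.54 to 49.3 ± 5.53 FPKM (-2.004, limma adjusted p = 0.0001087), and Pdk4, a kinase that restrains pyruvate oxidation, fell from 73.0 ± 1.36 to 33.7 ± 0.298 FPKM (-1.11, adjusted p = 4.628e-05). Lcn2, an iron-siderophore carrier, fell from 12.1 ± 0.556 to 4.98 ± 0.167 FPKM (-1.26, adjusted p = 0.02658), a call lost without any 1 of the 4 samples compared (adjusted p 0.0933 to 0.115) and with no FPKM limit (0.0965). Tgm2, a protein-crosslinking transglutaminase, rose from 11.5 ± 0.21 to 26.2 ± 0.0744 FPKM (1.19, adjusted p = 8.847e-05).

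In the Esrrb line 3 genes of this list were called downward with Hh-CM (4.82% of all tested genes were called in either direction), and the median was -0.32 beside 0.04. Tgm2 (1.80) rose, and Angptl4 (-2.75), Pdk4 (-1.74) and Lcn2 (-1.25) fell. The Lcn2 call was lost without Esrrb replicate 2 (adjusted p = 0.07603) and Esrrb+Hh-CM replicate 2 (0.07984), with no FPKM limit (0.08507) and with the compared groups alone (0.0872). Between Control and Esrrb+Hh-CM 3 were called, all downward (6.23% of all tested genes), and between Control and Esrrb or Hh-CM and Esrrb+Hh-CM none was. The interaction passed in Pdk4 (-0.62, adjusted p = 0.008422) and in Tgm2 (0.61, adjusted p = 0.02307). Leaving out 1 sample took Tgm2 to an adjusted p of 0.0591 to 0.0827 without either Control, either Hh-CM, Esrrb replicate 2 or Esrrb+Hh-CM replicate 1.

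Of 16 inflammatory genes that glucocorticoid commonly represses, 8 were tested. Between Control and Hh-CM 1 was called upward and 4 downward, beside 2.77% of all tested genes. Their median was -0.93 beside 0.04 for all tested genes. The chemokine genes Ccl2 (378.6 ± 10.1 to 88.7 ± 5.45 FPKM, -2.09, limma adjusted p = 2.844e-05), Cxcl5 (-1.53), Ccl7 (-1.26) and Cxcl1 (-1.24) fell, and the cytokine gene Il6 rose (1.58 ± 0.455 to 5.48 ± 0.613 FPKM, 1.75, adjusted p = 0.004984). In the Esrrb line the 4 chemokine genes fell again (-1.88 in Ccl2, -1.72 in Cxcl5, -1.29 in Cxcl1 and -1.26 in Ccl7) and Il6 rose (1.69). Ptgs2, the inducible cyclooxygenase, was called in the Esrrb line (-1.22) and not in the empty vector line, its interaction did not pass (adjusted p = 0.163), and the call was lost with a pseudocount of 1 (-0.90). No gene of this list was called between Control and Esrrb or from Hh-CM to Esrrb+Hh-CM, and none passed the interaction.

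The study names Mt2, Aldh1a7, Ankrd1 and Ism1 as genes with glucocorticoid response elements. It chose them on these samples, so their direction is no independent evidence. Between Control and Hh-CM 3 of the 4 were called, all downward (2.77% of all tested genes), and 3 of 4 between Esrrb and Esrrb+Hh-CM (4.82%). Aldh1a7, an aldehyde dehydrogenase, fell from 3.74 ± 0.671 FPKM in Control to 1.28 ± 0.366 in Hh-CM cells (-1.48, limma adjusted p = 0.01598), and was at 0.485 ± 0.0832 FPKM in Esrrb+Hh-CM cells. It was the only 1 of the 4 called between Control and Esrrb (-1.33, adjusted p = 0.02657) and between Hh-CM and Esrrb+Hh-CM (-1.23, adjusted p = 0.0291). The Hh-CM call of Aldh1a7 was lost without Control replicate 2 (adjusted p = 0.08592) and Hh-CM replicate 2 (0.06929), that for the Esrrb vector without any 1 of its 4 samples (0.062 to 0.118), that against Esrrb+Hh-CM without Hh-CM replicate 1 or either Esrrb+Hh-CM sample (0.0626 to 0.126), and that in the Esrrb line without Esrrb replicate 2 (0.0772) and Esrrb+Hh-CM replicate 1 (0.0676). With no FPKM limit none of these 4 calls of Aldh1a7 passed (adjusted p 0.0595 to 0.0907). A pseudocount of 1 took the value for the Esrrb vector to -0.96, that from Hh-CM to Esrrb+Hh-CM to -0.61 and that in the Esrrb line to -0.70, all short of the fold limit. Ankrd1, an ankyrin repeat protein, fell with Hh-CM (-1.15) and was at -0.99 in the Esrrb line. Ism1, a secreted protein, fell in the Esrrb line (-1.28) and was at -0.93 with the empty vector. Of the 4 C/EBP factors, which regulate Hsd11b1 in liver and fat cells, Cebpd had no row and Cebpa was listed at 0. Cebpb and Cebpg were tested and neither was called (1.35% to 6.23% of all tested genes). By the adjusted p alone both were higher from Control to Esrrb+Hh-CM (35.1% of all tested genes passed). Only 1 of the 2 was higher with Hh-CM in the empty vector line (18.1%), in the Esrrb line (23.4%) and from Control to Esrrb (16.4%). From Hh-CM to Esrrb+Hh-CM neither passed (19.1%).

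**Figure D4:**
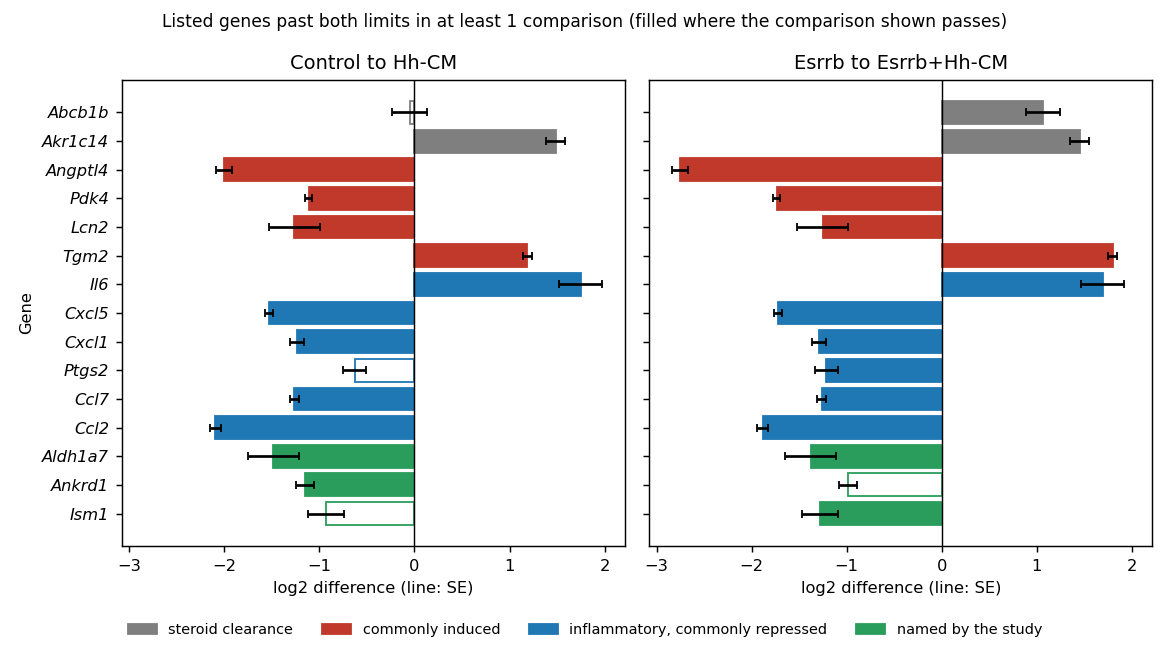
Differences in log2(FPKM + 0.1) (horizontal axis, lines for the SE) of listed glucocorticoid-related genes (vertical axis) past both limits in at least 1 comparison, for Hh-CM in the empty vector line (left) and the Esrrb line (right), filled where that comparison was called. Angptl4 stands at -2.004 and -2.75, Ccl2 at -2.09 and -1.88, Tgm2 at 1.19 and 1.80 and Akr1c14 at 1.48 and 1.45.

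Among the genes whose log2 level followed Hsd11b1 most closely over the 8 samples were Fgf23 (Pearson r = 0.9961), Klhl2 (0.9949), Grb14 (0.9946) and Fam3c (0.9945). Fgf23, a hormone that controls phosphate, was at 0.676 ± 0.0373 FPKM in Control, 3.96 ± 0.387 with Hh-CM, 0.618 ± 0.0385 with the Esrrb vector and 6.11 ± 0.834 with both. Grb14, an adaptor of the insulin receptor, was at 37.3 ± 1.26, 83.6 ± 0.412, 33.9 ± 0.895 and 95.2 ± 6.35 FPKM in the same order. An r above 0.95 was reached by 207 of 10283 genes (2.01%). The 8 points share their libraries and fall into samples with and without Hh-CM, and r is given as a description. In the set itself, r to Hsd11b1 was 0.9926 for Nr3c1, 0.9875 for Fkbp5, 0.40 for Tsc22d3, -0.01 for Nr3c2, -0.07 for H6pd and -0.9905 for Sgk1, and the metallothioneins were not compared because they lack a value in Hh-CM replicate 1.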

How the data were processed

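RNA-Seq of 8 NIH3T3 samples, 2 in each of the 4 groups, was used, with groups and replicate numbers taken from the labels. The deposited values are FPKM, with an interval for each row. The authors trimmed reads with FASTX-Toolkit, used TopHat2 and Bowtie2 to map them on mm9, and assembled each sample with Cufflinks under the reference annotation. The submitters' processing notes name Cufflinks and Cuffdiff, and versions are not given in the sources used here. Libraries were made with a stranded kit. How the assembly used strand, and how reads that map to several places were treated, is not given in the sources used here.

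Cufflinks numbers its rows anew in each sample, so rows were joined by position: each gene of GENCODE vM1 on mm9 was given the row that overlapped it best, if the shared length was at least 0.5 of their combined span. Where 1 row spanned Mt1 and Mt2, the sample was left out for both. Genes that reached 1 FPKM in 2 or more samples and had a value in all 8 were tested, together with Mt1 and Mt2, which have 7. Group means were fitted to log2(FPKM + 0.1) with limma 3.58.1 in R 4.3.3, with a variance trend and Benjamini-Hochberg adjustment over all 10286 genes. Fold changes on this scale understate those of low genes. A call needed an adjusted p below 0.05 and a log2 difference of 1 or more in either direction, while the interaction needed only the adjusted p. The code was first tested on simulated data. Python 3.11.15, pandas 2.3.3, numpy 2.4.6 and matplotlib 3.10.9 were used for the rest. No read counts were available to set counting errors, so depth is known only relative to 1 sample, and across genes the log2 difference of the 2 replicates had an SD of 0.563 to 0.689.

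The 10 genes and the gene lists were chosen with earlier results of these data known. All 10 genes are named, list genes if called in at least 1 comparison, at most 5 a list by size, and the 5 genes with the highest r to Hsd11b1. Ptgs2, a sixth gene of the inflammatory list, was named after its values were seen. Some items that these rules would name are not reported here. Values of genes at 0 are given as listed. Tried as alternatives were no FPKM limit, pseudocounts of 1 and 0.001, 1 FPKM in every sample, the replicate block, the compared groups alone, rescaled FPKM, no variance trend, summed rows, an overlap of at least 0.8, genes with missing samples, the adjusted p alone, each sample left out and, chosen after seeing the data, the midpoint of the Cufflinks interval.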

Additional observations from a re-analysis of the deposited data

How the results depend on the processing

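Of 1065 values of the 9 tested genes under the alternatives, 1048 kept their direction and their call by both limits together, 5 lost a call, 3 gained one and 9 changed sign. Read by the adjusted p alone, 54 of the 1065 no longer passed and 9 newly passed, 38 of these 63 with 1 sample left out. Each of the 9 was within 0.07 of 0 on the log2 scale in the changed setting: Nr3c1 between Esrrb+Hh-CM and Hh-CM with rescaled FPKM (-0.0101) and without Hh-CM replicate 2 (-0.0034, range with 1 sample left out to 0.0784), H6pd between Esrrb and Esrrb+Hh-CM with rescaled FPKM (-0.0325), without Esrrb replicate 1 (-0.0323) and without Esrrb+Hh-CM replicate 1 (-0.0619, to 0.075), Nr3c2 between Control and Esrrb without Control replicate 1 (-0.0429) and without Esrrb replicate 2 (-0.0687, to 0.1575), Tsc22d3 between Esrrb and Esrrb+Hh-CM without Esrrb+Hh-CM replicate 1 (-0.0035, to 0.1382), and the interaction of Mt2 without Esrrb+Hh-CM replicate 2 (-0.0455, to 0.1392). The cause was not tested. The number of the 10 genes called between Control and Hh-CM was 1 with the interval midpoint. By the adjusted p alone, 6 were called between Control and Hh-CM, 2 between Control and Esrrb, and 6 in each of the other 3 comparisons. With 1 sample left out, 1 to 2 were called between Control and Hh-CM (1 without Hh-CM replicate 2, where neither metallothionein has an Hh-CM value), 2 to 4 between Esrrb and Esrrb+Hh-CM, and 0 to 1 for the interaction (1 without Esrrb replicate 1).

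Of all tested genes, 180, 88 and 125 were called with a pseudocount of 1 between Control and Hh-CM, Control and Esrrb, and Esrrb+Hh-CM and Hh-CM, and 186, 70 and 109 with 1 FPKM or more required everywhere, against 285, 151 and 203. The interaction passed in 139 genes, against 215 with rescaled FPKM, 84 with no variance trend, 64 with the interval midpoint and 64 to 168 with 1 sample left out, of which 80 without Control replicate 1, 81 without Esrrb replicate 1, 64 without Esrrb replicate 2 and 79 without Hh-CM replicate 2. Samples with the same replicate number did not deviate together (correlations -0.0596 to 0.0623). With the replicate block the interaction passed in 55 genes and no call of the 9 genes by both limits changed. By the adjusted p alone, Mt2 between Control and Esrrb (0.05284) and, between Esrrb+Hh-CM and Hh-CM, H6pd (0.07697), Mt1 (0.05025) and Mt2 (0.09489) no longer passed with the block, so that 3 of the 9 genes rather than 6 passed in the latter comparison. Of the listed genes, Lcn2 between Control and Hh-CM, Aldh1a7 between Control and Esrrb and between Esrrb+Hh-CM and Hh-CM, and the interaction of Tgm2 no longer passed the adjusted p limit. Of 832 alternative values of 42 calls in other listed genes, 51 lost the call and 0 changed sign. Arms left with 1 sample were assumed to vary like the other groups. With 2 samples a group, differences near the fold limit, such as those of Fkbp5 and Sgk1, cannot be placed on either side of it.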
